A study of Homo sapiens with 12 samples.

Results

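The 3 libraries labelled T24 shNC were set against the 9 other libraries of a series of 12, and the genes that were high or absent in those 3 libraries were described as a portrait of the group. The members are the 3 libraries, chosen by their labels alone. All 12 libraries hold poly(A)-selected RNA, labelled as that of human bladder cancer cell lines. By their labels, 3 come from T24 cells with a shNC construct (the control), 3 from T24 cells with shFTO (a short hairpin against FTO, an RNA demethylase), 3 from RT4 cells with shNC and 3 from RT4 cells with shFTO. The labels give no drug treatment in any group, and they do not say what shNC encodes, how the constructs were delivered, or whether a group is 1 clone or a pool of cells. T24 was derived from a poorly differentiated bladder carcinoma and RT4 from a well-differentiated papillary one. The study's title and design name the effect of FTO knockdown in both lines as its question.

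Urothelium, the lining of the bladder, has basal cells that express TP63 and the keratins KRT5 and KRT14, and luminal cells that express uroplakins, GATA3 and PPARG. Bladder cancers are often described by which of these programmes they keep. KEAP1 is the adaptor through which cells degrade the transcription factor NRF2, and NRF2 drives genes of glutathione, thioredoxin and NADPH supply. Interferons made by a cell, or added to it, raise a shared set of antiviral genes through STAT proteins.

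Total counts were 32703357, 31291047 and 43791909 in T24 shNC 1, 2 and 3, within a series range of 31291047 to 102798895. Levels are TMM-scaled CPM, counts relative to the total of their library, given per library or as mean ± SD over n = 3 libraries per group. Differences are log2(CPM + 0.5) of T24 shNC minus the mean of the same quantity over the 3 other groups, each weighted equally, so they understate changes of genes with low levels. Calls come from 1 edgeR quasi-likelihood fit over 23070 genes with Benjamini-Hochberg (BH) adjustment under 0.05. Whether the 3 libraries of a group are separate cultures is not stated, so a p-value reflects only how much these libraries varied, which may be technical. Counting intervals and bounds cover counting error only.

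The T24 shNC libraries resembled one another closely and the other groups much less. Over 16200 tested genes averaging 1 CPM or more, the mean Pearson r of log2(CPM + 1) was 0.996 among the T24 shNC libraries. It was 0.706 with T24 shFTO, the group labelled as the same line, 0.729 with RT4 shNC and 0.781 with RT4 shFTO, a description across genes and not across independent samples. The group labelled with the same line was thus the least similar of the 3. FTO (chromosome 16, 53703963 to 54121941, RefSeq GRCh38.p14) was at 35.4, 36.3 and 33.9 CPM in T24 shNC and at 25.9, 26.3 and 24.2 CPM in T24 shFTO. Every T24 shNC library lay above every T24 shFTO library, and the exact two-sided permutation test gave p = 0.1, the smallest that 20 splits of 3 against 3 allow. The edgeR BH-adjusted p of that contrast was 1.93e-07. In RT4 the order went against the labels, with 45.03, 46.9 and 46.6 CPM in the libraries labelled shNC and 70.2, 71.3 and 65.2 CPM in those labelled shFTO. Whether the libraries hold the lines that their labels name was not tested, and T24 shNC and the other names stand for labels throughout.

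The 4 genes that mark the group were high in all 3 T24 shNC libraries. MUC16, a large membrane mucin known as CA125, was at 425, 449 and 420.3 CPM against 0 to 0.141 CPM over the 9 other libraries (median 0). KRT17, a keratin of basal and injured epithelium, was at 1219.9, 1259 and 1312 CPM against 0 to 1.45 CPM over the 9 other libraries (median 0.961). TRIM29, a basal epithelial protein of the TRIM family, was at 387, 393 and 404 CPM against 0 to 1.07 CPM over the 9 other libraries (median 0.0512). OASL, an antiviral protein related to the 2′-5′-oligoadenylate synthetases, was at 393, 391 and 398 CPM against 0.0610 to 6.16 CPM over the 9 other libraries (median 0.812). None of the 4 overlapped between T24 shNC and the other libraries. The differences were 9.71, 10.20, 9.08 and 7.86 on the log2 scale, and the highest BH-adjusted p from edgeR against any group was 2.64e-10, for MUC16. These genes were proposed as markers with results of these data known.

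Several genes that define the urothelial layers were low. The wider luminal list went the other way, with 10 of 25 tested genes called higher than in each other group (40%) and 1 lower (4%). Over all tested genes these shares were 17.5% and 13.4%. The uroplakins UPK1B and UPK3A, plaque proteins of umbrella cells, had 0 counts in all T24 shNC libraries, and stayed at or under 1.56 and 1.18 CPM in every other library. UPK1A and UPK2 were at 0.728 ± 0.0162 and 1.23 ± 0.198 CPM. GATA3, a luminal transcription factor, was at 0.313, 0.149 and 0.0642 CPM against 2.56 to 13.4 CPM over the 9 other libraries (median 9.19), below every other library (difference -3.50, highest edgeR BH-adjusted p 5.36e-10). Of the basal defining genes, KRT5 and KRT14 were at 0.758 ± 0.481 and 2.45 ± 0.312 CPM, and both were called higher throughout at these levels. TP63, the basal master regulator, was at 1.19 ± 0.185 CPM against 0.167 ± 0.0579 in T24 shFTO, 0.204 ± 0.109 in RT4 shNC and 12.9 ± 0.131 in RT4 shFTO. It was called higher in the fit against the mean of the groups (edgeR BH-adjusted p 0.0197), while its log2(CPM + 0.5) difference was -0.13, and the call was lost without T24 shNC 1, T24 shNC 2 or T24 shFTO 1 (0.0535 to 0.0857). PPARG, a luminal nuclear receptor picked out after its values were seen, was not low, at 38.03 ± 1.39 CPM against 64.2 ± 0.536 in T24 shFTO, 2.94 ± 0.161 in RT4 shNC and 25.4 ± 1.40 in RT4 shFTO.

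Differences between T24 shNC and the rest covered most of the transcriptome. Of 23070 tested genes, 17284 (74.9%) were called against the mean of the other groups, 9710 (42.1%) higher and 7574 (32.8%) lower. A gene is called higher throughout, or lower throughout, where T24 shNC differed from each of the 3 other groups in that direction. By that stricter rule 4044 genes (17.5%) were higher throughout and 3093 (13.4%) lower throughout, and each count below is to be read against those shares. A gene could pass the low-count filter through a single group, and one that passed through T24 shNC alone could hardly be called lower. The 3 contrasts share the T24 shNC libraries, so they are not independent of each other. Every T24 shNC library lay above all 9 others for 18.9% of the genes and below all 9 for 13.3%. Against single groups, T24 shNC was called higher for 40.8% of genes in the contrast with T24 shFTO, 40.3% with RT4 shNC and 39.4% with RT4 shFTO, and lower for 37.2%, 39.7% and 36.6%. The median difference over all tested genes was -0.04. Where none of a list's members is given as higher or lower throughout, an unadjusted p under 0.05 in all 3 contrasts, DESeq2 and limma-voom gave none either, except for leukocyte markers, of which 1 was lower at an unadjusted p and 2 were lower in DESeq2.

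Presence and absence gave a narrower list. Genes were taken as high only in T24 shNC where they reached at least 10 CPM in each of its libraries and stayed under 0.5 CPM in the 9 others, and as absent only where the reverse held. There were 76 high-only genes (0.329% of tested genes) and 16 absent-only genes (0.0694%). The same rule applied to the other groups gave 148 and 72 for T24 shFTO, 62 and 57 for RT4 shNC, and 61 and 27 for RT4 shFTO. All 76 high-only genes were also called higher throughout and all 16 absent-only genes lower throughout, which the rule itself makes likely. At the edges of the threshold, GJB5, ALPG and TMEM63C had their lowest T24 shNC library at 10.3, 10.3 and 10.5 CPM, and LINC03078, LXN and PCSK1 missed at 9.61, 9.59 and 9.46 CPM. AASS, MOXD1 and ZNF772 missed the absent-only list with a lowest other library of 9.58, 8.89 and 7.93 CPM. The high-only genes comprised 56 coding genes and 11 long noncoding RNAs, and 10 of the 76 are named only by an Ensembl identifier or a LINC number.

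**Figure D1:**
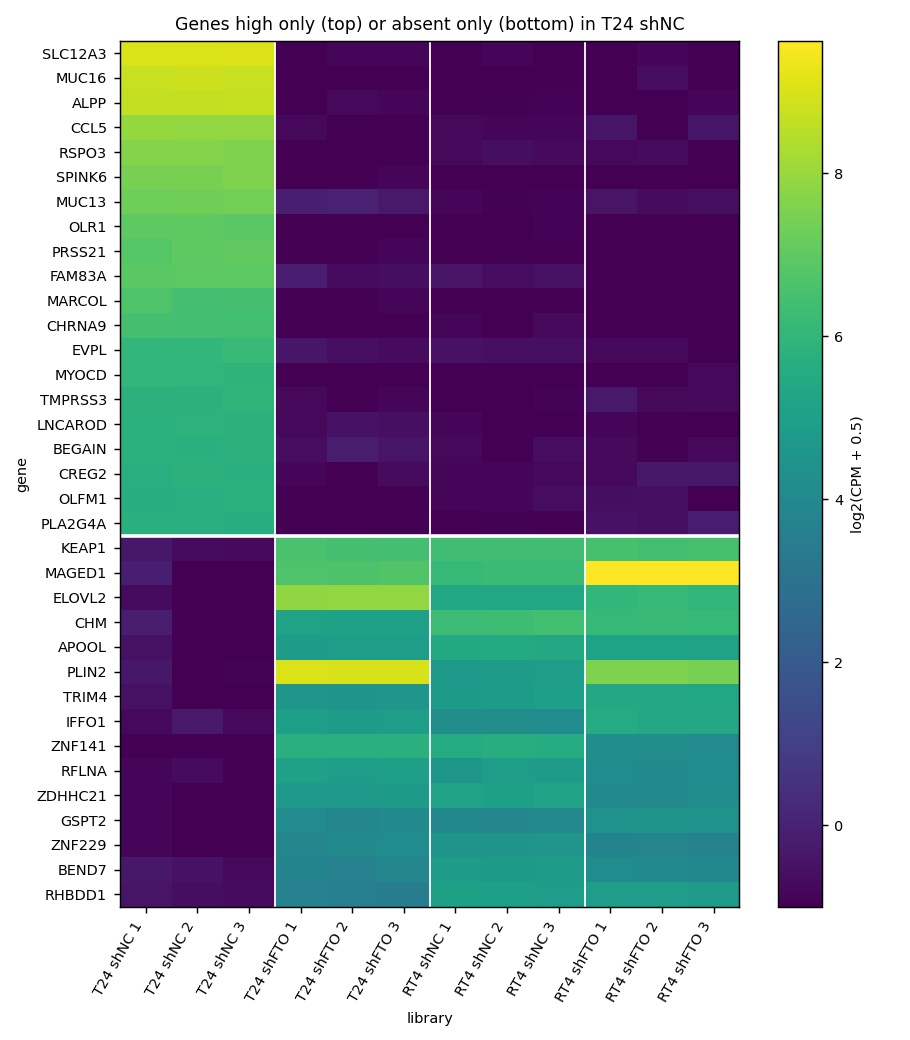
Levels of the 20 high-only genes with the highest T24 shNC mean (above the horizontal line) and of 15 absent-only genes (below it) in each of the 12 libraries, coloured by log2(CPM + 0.5). The first 3 columns are T24 shNC, from SLC12A3 at a mean of 523 CPM down to PLA2G4A at 51.5 CPM, and every absent-only gene lies under 0.5 CPM there.

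The most abundant high-only genes encode transporters, secreted factors and surface proteins. SLC12A3 (chromosome 16, 56865207 to 56915850), the thiazide-sensitive sodium-chloride cotransporter known from the kidney's distal tubule, was at 515, 524 and 529.6 CPM and at 0 to 0.0768 CPM over the 9 other libraries (median 0). Its pooled rate was 19240-fold (95% counting interval 11250 to 36130) that of the 9 other libraries. ALPP, the placental alkaline phosphatase, was at 399, 396 and 414 CPM against 0 to 0.0915 CPM over the 9 other libraries (median 0.0182). It has near-identical copies, and ALPG was itself a high-only gene, so reads may be shared between them. CCL5, a chemokine that attracts T cells, was at 246, 241 and 239.7 CPM against 0 to 0.268 CPM over the 9 other libraries (median 0.0773). RSPO3, a secreted enhancer of Wnt signalling, was at 199.9, 198 and 191 CPM against 0 to 0.164 CPM over the 9 other libraries (median 0.0804). In each of these genes all 3 T24 shNC libraries were far above every other library, with at most 0.268 CPM elsewhere.

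Several high-only genes encode proteases, their inhibitors or mucosal surface proteins. SPINK6 (chromosome 5, 148202778 to 148215137), an inhibitor of kallikreins in skin, was at 173, 172 and 188 CPM, with 2 counts in the 9 other libraries together. Its pooled rate was 42670-fold (95% counting interval 11810 to 352300) higher. MARCOL, which lies near SPINK6 (chromosome 5, 148238525 to 148243580), was at 93.05 ± 8.67 CPM with 3 counts elsewhere. MUC13, a membrane mucin of the gut, was at 155, 159 and 162 CPM against 0.0182 to 0.488 CPM over the 9 other libraries (median 0.183). PRSS21, the membrane-anchored protease testisin, was at 114, 126 and 132 CPM, again with 2 counts elsewhere. The levels of TMPRSS3, a membrane serine protease, and of EVPL, the envoplakin of the cornified envelope, were 57.9 ± 3.61 and 67.4 ± 3.36 CPM. Each of these genes was under 0.5 CPM in every library of the other groups.

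The remaining named high-only genes are best known from several different tissues. OLR1, a receptor for oxidised low-density lipoprotein, was at 128, 128 and 118 CPM and CHRNA9, a nicotinic acetylcholine receptor subunit of cochlear hair cells, at 88.96, 86.3 and 84.8 CPM. MYOCD, the smooth muscle coactivator myocardin, was at 65.04, 62.4 and 59.3 CPM, with 3 counts in the 9 other libraries. FAM83A was at 122 ± 2.88 CPM, the long noncoding RNA LNCAROD at 56.3 ± 1.53, BEGAIN (a postsynaptic protein) at 54.3 ± 1.40, CREG2 at 54.02 ± 2.28 and OLFM1 (an olfactomedin of neurons) at 51.5 ± 3.02 CPM. PLA2G4A, the phospholipase that releases arachidonic acid, was at 52.5, 53.2 and 48.7 CPM against 0 to 0.366 CPM over the 9 other libraries (median 0). ALOX5, the lipoxygenase that turns arachidonic acid towards leukotrienes, had 0 counts in all 9 other libraries and 41.4 ± 0.853 CPM here, at least 6597-fold higher with 3 counts over the 9 libraries as the bound. ALOX5 was picked out after its values were seen.

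KEAP1 led the absent-only genes. KEAP1 (chromosome 19, 10486125 to 10503356), the substrate adaptor that directs NRF2 to degradation, was at 0.313, 0.119 and 0.107 CPM in T24 shNC. It was at 95.8, 89.7 and 86.4 CPM in T24 shFTO, at 82.2, 83.01 and 82.4 CPM in RT4 shNC and at 92.6, 83.4 and 91.95 CPM in RT4 shFTO. The 3 other groups stood close together and the T24 shNC libraries held almost no KEAP1 transcripts, 20 counts in all against 41282. The pooled rate was 499-fold (95% counting interval 323 to 817) lower, the difference -7.02, and -6.80, -7.12 and -7.17 within the labelled batches 1, 2 and 3, each of which holds 1 library per group. Of the 3 contrasts, the highest BH-adjusted p in edgeR was 8.13e-19. KEAP1 was selected by the absent-only rule from these same counts, which makes a small p-value likely, so it is no separate support. Neighbouring genes on chromosome 19 were picked for their position. CDC37, a kinase cochaperone on one side, was not called against the mean of the other groups, and was at 148 ± 6.38 CPM against 141 ± 4.60 in T24 shFTO, 172 ± 4.68 in RT4 shNC and 134 ± 4.32 in RT4 shFTO. PDE4A, a phosphodiesterase that lies between CDC37 and KEAP1, was at 28.3 ± 6.36 CPM, within the range of 6.04 to 34.1 CPM of the other libraries. S1PR5, a sphingosine phosphate receptor on the other side, was low in all libraries, with 0.774 ± 0.334 CPM here and at most 1.74 CPM elsewhere. ATG4D, an autophagy protease beyond it, was at 20.6 ± 0.636 CPM against 18.8 ± 0.397 in T24 shFTO, 16.6 ± 1.86 in RT4 shNC and 18.2 ± 1.00 in RT4 shFTO.

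The other absent-only genes were spread over several functions and chromosomes. MAGED1, an adaptor of the MAGE family, was at 0.427, 0 and 0 CPM against 69.2 to 789 CPM over the 9 other libraries (median 103). PLIN2, which coats lipid droplets, was at 0.313, 0 and 0.0428 CPM against 25.5 to 536 CPM over the 9 other libraries (median 188), and ELOVL2, an elongase of polyunsaturated fatty acids, at 0.114, 0 and 0 CPM against 39.6 to 237 CPM over the 9 other libraries (median 64.3). CHM, the Rab escort protein 1, was at 0.399, 0 and 0 CPM against 33.5 to 84.4 CPM over the 9 other libraries (median 69.5). APOOL, a subunit of the mitochondrial cristae complex MICOS, was at 0.199, 0 and 0 CPM against 28.6 to 44.3 CPM over the 9 other libraries (median 35.1). In all of these the lowest other library stood at 25.5 CPM or more, and no T24 shNC library reached 0.5 CPM.

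Smaller members were the ubiquitin ligase TRIM4 at 0.0664 ± 0.115 CPM, the filament protein IFFO1 at 0.166 ± 0.140, the palmitoyltransferase ZDHHC21 at 0.0190 ± 0.0329 and the filamin-binding protein RFLNA at 0.0587 ± 0.0595 CPM. The translation termination factor GSPT2 was at 0.0190 ± 0.0329 CPM, the zinc finger protein ZNF229 at 0.0190 ± 0.0329, BEND7 at 0.202 ± 0.114 and the rhomboid protease RHBDD1 at 0.168 ± 0.0524 CPM. ZNF141, a further zinc finger protein, had 0 counts in all 3 libraries against 17.2 to 53.2 CPM over the 9 other libraries (median 47.3), at least 1608-fold lower. The last absent-only gene, ZNF606, outside the naming rule, also had 0 counts. Traces of these genes were uneven over the 3 libraries. T24 shNC 1 had at least 1 count in 14 of the 16 genes and a summed level of 2.82 CPM, against 5 genes each and 0.923 and 0.450 CPM in T24 shNC 2 and 3. MAGED1, CHM, APOOL, TRIM4, ELOVL2, ZDHHC21, GSPT2 and ZNF229 had their only T24 shNC counts in T24 shNC 1. Without that library MAGED1 was at least 6605-fold lower, against 1899-fold (95% counting interval 1151 to 3393) with it. PLIN2 was 7660-fold lower without it, on 2 counts, against 1694-fold (95% counting interval 991 to 3182) with it. KEAP1 was 771-fold lower without that library. IFFO1 went the other way, 146-fold lower without that library against 175-fold (95% counting interval 110.5 to 294.9) with it. In bulk RNA, fewer cells that express a gene and less of its RNA per cell cannot be told apart.

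Some absent genes were neighbours. GSPT2 and MAGED1 follow each other on the X chromosome (51743442 to 51746232 and 51803076 to 51902354), as do APOOL and CHM (85003877 to 85093315 and 85861180 to 86047558) in the order of RefSeq coding genes with a median of at least 5 CPM over the other groups' means. Of 10376 such genes, 161 were under 0.5 CPM in every T24 shNC library, and 36 of these lay in 14 runs of 2 or more. The 20 run genes on chromosome 19 were all zinc finger genes. By symbol, 37 of 392 zinc finger genes were under that level (9.44%), against 1.24% of the other coding genes. The same shares were not computed for the other groups, and a gene could enter a run though another group lacked it too. Among the run genes, ZNF667, ZNF471, ZNF135 and ZNF90 were at 0 CPM in RT4 shFTO as well. ZNF606 and ZNF577 were at 11.5 and 7.49 CPM there. The share of tested genes called lower throughout was 13.4% over all genes. It was 27.1% on chromosome 19, 26.2% on chromosome 6, 25.6% on chromosome 20 and 25.1% on chromosome 10. The share called higher throughout was 27.5% on chromosome 9 and 24.8% on chromosome 5, against 17.5% over all genes. These positions are a description after the values were seen, and genes on 1 chromosome are not independent.

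Many known NRF2 targets were high in T24 shNC, and whether this is linked to the level of KEAP1 was not tested. Of 34 tested aldo-keto reductases, NRF2 target genes and partners, 16 were higher throughout and 3 lower throughout, with a median difference of 2.11. Their summed level was 23490 CPM in T24 shNC, 10665 in T24 shFTO, 4170 in RT4 shNC and 16082 in RT4 shFTO. In T24 shNC and in RT4 shFTO alike, 30 of them reached 10 CPM. The lists of genes used here were drawn up with earlier results of these data known. AKR1C2, a steroid and carbonyl reductase, was at 991, 974 and 1005 CPM against 2.44 to 55.4 CPM over the 9 other libraries (median 4.98). ABCC2, an exporter of glutathione and glucuronide conjugates, was at 798, 823 and 808 CPM against 8.40 to 159 CPM over the 9 other libraries (median 71.9). ALDH3A1, an aldehyde dehydrogenase, was at 177, 180.2 and 191 CPM against 0 to 53.7 CPM over the 9 other libraries (median 0.488). All 3 T24 shNC libraries lay above every other library in these 3 genes, with differences of 6.63, 4.10 and 5.97.

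The pattern was not shared by all members. AKR1C1 was higher in RT4 shFTO (501 ± 19.8 CPM) than in T24 shNC (257 ± 0.960 CPM), and so was AKR1B1 (901 ± 15.8 against 556 ± 9.96 CPM). AKR1C3, which makes androgens and prostaglandins, did not differ detectably between T24 shNC and RT4 shFTO (350.1 ± 10.7 and 361 ± 14.5 CPM, edgeR BH-adjusted p 0.509). AKR1C4 was at most 1.04 CPM in every library. The AKR1C genes are close copies, and the counting of multiply placed reads is not stated. NFE2L2, the gene of NRF2 itself, was lower throughout, at 67.3 ± 1.18 CPM against 210.2 ± 10.97 in T24 shFTO, 127 ± 4.24 in RT4 shNC and 141 ± 6.20 in RT4 shFTO. TXNRD1 (thioredoxin reductase) and SLC7A11 (the cystine importer) were higher throughout, at 1133 ± 5.91 and 439 ± 19.5 CPM with differences of 1.32 and 2.28. GCLM, the modifier subunit of the enzyme that starts glutathione synthesis, was at 178 ± 6.91 CPM against 191 ± 3.28 CPM in RT4 shFTO. NFE2L2, TXNRD1, SLC7A11 and GCLM were picked out after their values were seen. The motif TGACNNNGC, the core of an antioxidant response element, stood on either strand within 250 bases before the start of 6 of 24 list genes with a RefSeq promoter (25%), of 8 of the 40 interferon-stimulated genes with one (20%) and of 11% of all 27305 promoters.

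Conjugation enzymes were high as well, though not in this group alone. Of 9 tested UGT1A genes, glucuronosyltransferases that share their last exons, 5 were higher throughout and none lower (median difference 1.51). UGT1A7 was at 429.7, 386 and 413 CPM, with 0 counts in T24 shFTO and RT4 shNC and 1.27 ± 0.597 CPM in RT4 shFTO. UGT1A6 was at 95.2, 122 and 113 CPM against 0 to 54.3 CPM over the 9 other libraries (median 3.20), and UGT1A1, the bilirubin-conjugating enzyme, at 19.4, 31.1 and 26.5 CPM against 0 to 19.5 CPM over the 9 other libraries (median 15.9). UGT1A7 and UGT1A6 did not overlap with the other libraries, and UGT1A1 did. Because these genes share exons, the level of any 1 of them is uncertain. Summed over the UGT1A genes, levels were 552 CPM in T24 shNC, 480 in RT4 shFTO, 19.3 in T24 shFTO and 0 in RT4 shNC. Of 31 tested cytochrome P450 genes, 5 were higher and 3 lower throughout (median -0.27, or 0.02 without the filter on low counts). CYP4F11, a fatty acid hydroxylase, was at 55.7, 59.2 and 57.1 CPM against 0 to 2.20 CPM over the 9 other libraries (median 0.0610). CYP1A1, the classical target of the aryl hydrocarbon receptor, was at 0.768 ± 0.0766 CPM against 72.8 ± 3.08 CPM in T24 shFTO, and was lower throughout.

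STK11 and CPS1 also stood apart, and STK11 was picked out after its values were seen. STK11 (chromosome 19, 1205778 to 1228431), the tumour suppressor kinase LKB1, was at 3.30, 2.62 and 3.13 CPM against 67.4 to 167 CPM over the 9 other libraries (median 77.6). All T24 shNC libraries were far below the lowest other library, with a difference of -4.76 and -4.64, -4.93 and -4.73 within batches. CPS1, the first enzyme of the urea cycle, was at 2838, 2913 and 2884 CPM against 0.640 to 8.72 CPM over the 9 other libraries (median 3.63). Its difference was 9.71, with 9.56, 9.84 and 9.75 within batches.

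**Figure D2:**
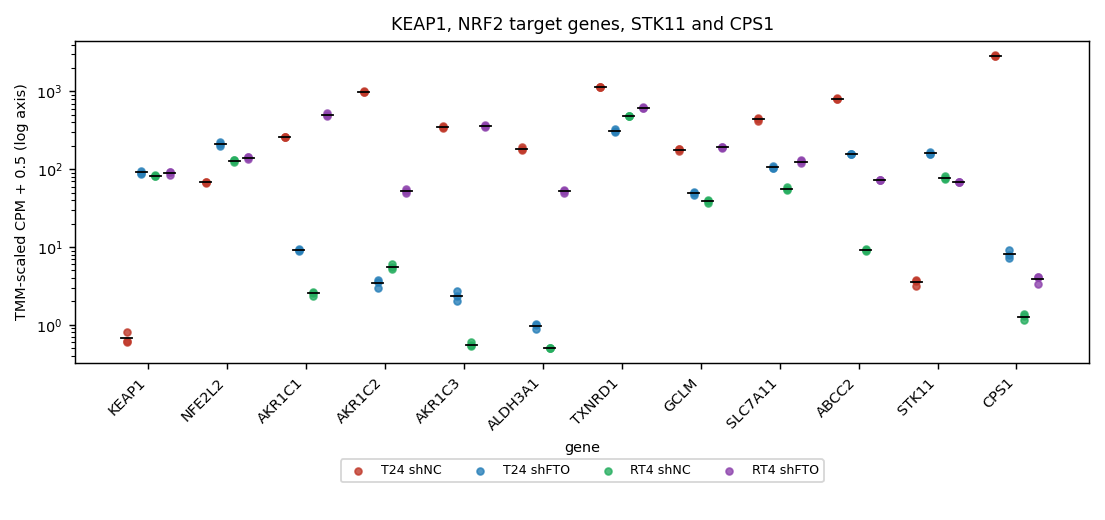
TMM-scaled CPM + 0.5 (log axis) of KEAP1, NFE2L2, NRF2 target genes, STK11 and CPS1, with 1 point per library, colours for the 4 groups and bars for group means. KEAP1 and STK11 lie at the bottom in T24 shNC (0.180 and 3.02 CPM), CPS1 lies at the top (2878 CPM), and AKR1C1, AKR1C3 and GCLM reach similar or higher levels in RT4 shFTO.

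Of the 40 lists examined, antiviral genes had the highest share called higher throughout. Of 49 tested interferon-stimulated genes, 32 were higher throughout (65.3%) and none lower, with a median difference of 2.54, against 17.5% and -0.04 over all tested genes. The list was not silent elsewhere. Its summed level was 3762 CPM in T24 shNC, 318 in T24 shFTO, 755 in RT4 shNC and 1962 in RT4 shFTO. Of 50 measured genes, 41 reached 10 CPM in T24 shNC, 6 in T24 shFTO, 20 in RT4 shNC and 30 in RT4 shFTO. IFIT1 and IFIT2, which bind viral RNA and hold back its translation, were at 205, 209.7 and 213 CPM and 238, 245 and 239 CPM. Elsewhere IFIT1 was at 0.102 to 9.70 CPM over the 9 other libraries (median 8.58) and IFIT2 at 0.275 to 17.8 CPM over the 9 other libraries (median 16.2). ISG15, a ubiquitin-like modifier, was at 339.8, 332 and 349 CPM against 8.14 to 16.3 CPM over the 9 other libraries (median 10.4). BST2 (tetherin), which holds budding virus at the cell surface, was at 246, 245 and 257 CPM against 0.275 to 10.5 CPM over the 9 other libraries (median 0.453). DDX60, a helicase, was at 175, 178 and 174 CPM against 0.307 to 17.1 CPM over the 9 other libraries (median 14.1). IFI44 and IFIT3 followed, at 90.7 ± 1.28 and 177 ± 6.87 CPM. None of these genes overlapped between T24 shNC and the other libraries, and their differences ran from 4.82 to 6.96. The highest edgeR BH-adjusted p among the 7 was 1.05e-13.

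Promoters of this list often held the interferon-stimulated response element. The motif GAAANNGAAA (a pair of GAAA half-sites 2 bases apart), searched on both strands, stood within 250 bases before the start of 24 of the 40 list genes that have a RefSeq promoter (60%, GRCh38.p14), and in 3.07% of all 27305 promoters. Among list genes higher throughout it stood in 17 of 25 (68%), and among tested list genes that were not, in 7 of 14 (50%). A match is a stretch of letters and not a shown binding site. The 150 bases before the start of 4 genes described above are printed 5′ to 3′ to show where the element lies, with matches on either strand in capitals.
IFIT1: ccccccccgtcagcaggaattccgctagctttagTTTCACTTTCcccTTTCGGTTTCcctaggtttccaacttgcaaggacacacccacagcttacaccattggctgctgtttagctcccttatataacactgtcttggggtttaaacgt
ISG15: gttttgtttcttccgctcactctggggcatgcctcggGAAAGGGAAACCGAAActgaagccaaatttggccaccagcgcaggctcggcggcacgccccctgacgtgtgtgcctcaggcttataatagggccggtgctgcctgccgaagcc
BST2: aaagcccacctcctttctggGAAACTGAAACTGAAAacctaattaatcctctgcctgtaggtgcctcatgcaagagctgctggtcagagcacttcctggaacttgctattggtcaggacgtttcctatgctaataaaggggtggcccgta
DDX60: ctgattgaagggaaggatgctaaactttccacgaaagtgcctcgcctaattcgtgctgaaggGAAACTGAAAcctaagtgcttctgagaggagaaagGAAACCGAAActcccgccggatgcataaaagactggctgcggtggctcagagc
These stretches are chr10:89392473-89392622 on the plus strand, chr1:1013347-1013496 on the plus strand, chr19:17405631-17405780 on the minus strand and chr4:168318753-168318902 on the minus strand. Each holds 2 matches. In ISG15 and BST2 the 2 matches overlap and form 1 run of capitals, in IFIT1 they lie on the opposite strand, and in DDX60 they lie apart from each other.

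Interferon genes themselves were detected at low levels in T24 shNC. IFNB1, the type I interferon made by epithelial cells and fibroblasts, was at 1.14, 0.952 and 1.33 CPM and IFNL1, a type III interferon, at 2.62, 2.71 and 2.83 CPM, and both had 0 counts in the 9 other libraries. These levels rest on 134 and 315 counts. Of 33 tested ligands, receptors and signalling genes, 6 were higher and 4 lower throughout (median 0.33). STING1, an adaptor that senses cytosolic DNA through CGAS, was at 58.9, 53.6 and 56.5 CPM against 0.0587 to 22.8 CPM over the 9 other libraries (median 18.8). TLR3, a receptor for double-stranded RNA, was at 12.7, 13.1 and 11.9 CPM against 0.183 to 5.37 CPM over the 9 other libraries (median 4.96). Both were higher throughout, with differences of 3.18 and 2.21. IFNE was at 1.09 ± 0.176 CPM, close to RT4 shNC (1.17 ± 0.163 CPM).

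Few class I antigen presentation genes were higher throughout. Of 21 tested class I genes, 1 was higher throughout (4.76%, against 17.5% of all tested genes) and none lower (median 0.93). Against the mean of the other groups 17 were called higher and 2 lower, where 42.1% and 32.8% of all tested genes were. Their summed level was 6746 CPM in T24 shNC, 3329 in T24 shFTO, 2597 in RT4 shNC and 10240 in RT4 shFTO. HLA-B and HLA-C, classical class I heavy chains, were at 491 ± 21.4 and 405 ± 10.9 CPM in T24 shNC and higher in RT4 shFTO, at 1034 ± 35.2 and 938 ± 21.4 CPM. The immunoproteasome subunit PSMB8 was at 64.9 ± 2.695 CPM against 78.9 ± 3.13 CPM there. NLRC5, the class I transactivator, was at 64.96 ± 2.46 CPM against 103 ± 2.67 CPM in RT4 shFTO. Of 10 class II genes, 1 was higher throughout, and HLA-DRA and CD74 were at 0.862 ± 0.117 and 1.29 ± 0.0894 CPM. HLA genes vary between people and resemble each other, so their counts are uncertain.

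Of 36 tested chemokines, interleukins and their receptors, 8 were higher throughout and none lower (median 0.09, or 0.17 without the filter on low counts). Beside CCL5, IL18, an interleukin stored by epithelia, was at 40.1, 38.3 and 37.3 CPM against 0.115 to 5.20 CPM over the 9 other libraries (median 3.94). The neutrophil chemokines CXCL8 and CXCL1 were at 5.46 ± 0.725 and 1.11 ± 0.255 CPM, below T24 shFTO (34.4 ± 3.03 and 15.8 ± 1.57 CPM). IL6 and the oncostatin receptor OSMR were at 16.3 ± 1.71 and 182 ± 4.47 CPM, below RT4 shFTO in both.

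**Figure D3:**
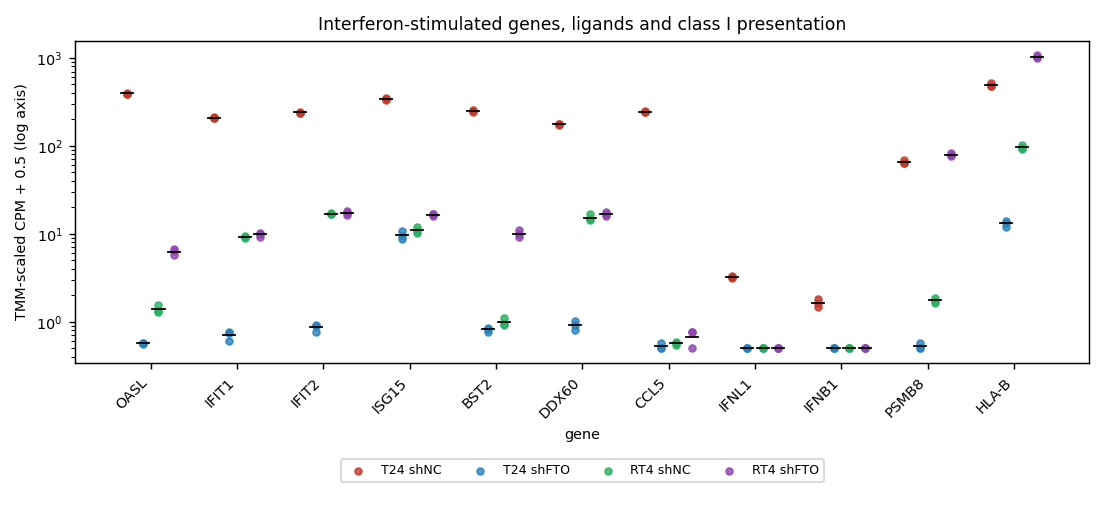
TMM-scaled CPM + 0.5 (log axis) of interferon-stimulated genes, CCL5, the interferons IFNL1 and IFNB1, and the class I genes PSMB8 and HLA-B, with 1 point per library and bars for group means. T24 shNC lies above all other groups from OASL (394 CPM) to IFNB1 (1.14 CPM), while PSMB8 and HLA-B are highest in RT4 shFTO.

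Epithelial genes were high in part. Of 35 basal and squamous genes measured, 24 passed the low-count filter, which a gene could do through T24 shNC alone. Of these 24 tested genes, 15 were higher throughout (62.5%) and none lower, with a median difference of 2.30. The share therefore leaves out members with few counts. Without the filter on low counts, which adds members with few counts in any group, the median was 0.36. Beside KRT17 and TRIM29, SFN, the epithelial 14-3-3 sigma, was at 216, 204 and 202 CPM against 0 to 53.2 CPM over the 9 other libraries (median 2.53). SERPINB5 (maspin) was at 69.03, 75.2 and 70.6 CPM against 0 to 7.75 CPM over the 9 other libraries (median 0), and LY6D, a surface protein of squamous cells and itself a high-only gene, at 30.7, 37.3 and 34.9 CPM against 0 to 0.0522 CPM over the 9 other libraries (median 0). All 3 T24 shNC libraries lay above the rest in these genes. KRT5 and KRT14 were also called higher throughout, at the low levels given above. KRT5 was at 1.31, 0.536 and 0.428 CPM, so T24 shNC 1 carried the highest of these traces as well.

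Of 25 tested luminal urothelial genes, 10 were higher and 1 lower throughout (median 0.69). Most of the abundant ones belong to simple epithelia in general. KRT7 was at 1174, 1196 and 1255 CPM against 0.915 to 145 CPM over the 9 other libraries (median 7.27), and ELF3, an epithelial transcription factor, at 118, 121 and 118 CPM against 0 to 48.1 CPM over the 9 other libraries (median 0.268). PSCA, a surface antigen of prostate and bladder, was at 52.9, 54.3 and 53.8 CPM against 0 to 1.45 CPM over the 9 other libraries (median 0.509). Of 29 simple epithelial genes, 8 were higher and none lower throughout (median 0.77). KRT8 was at 3669, 3850.0 and 3776 CPM against 161 to 1843 CPM over the 9 other libraries (median 977) and its partner KRT18 at 1650.2, 1639.6 and 1676 CPM against 258 to 1042 CPM over the 9 other libraries (median 556). KLF5, a zinc finger factor of proliferating epithelium, was at 134, 135 and 125 CPM against 6.54 to 8.91 CPM over the 9 other libraries (median 7.79). Per kilobase of exon, KRT8 reached 547 CPM, KRT18 514, KRT17 404 and KRT7 295. KRT8 and KRT18 have many processed copies in the genome that could take reads.

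Of 16 mucins and mucin-like proteins measured, 12 passed the low-count filter, which a gene could do through T24 shNC alone. Of these 12 tested genes, 6 were higher and none lower throughout (median 2.20, or 0.58 without the filter on low counts). MUC1, the epithelial membrane mucin, was at 628, 652 and 649 CPM against 2.47 to 35.8 CPM over the 9 other libraries (median 6.43). MSLN (mesothelin), a surface protein that binds MUC16, was at 264, 259 and 277 CPM against 0 to 2.64 CPM over the 9 other libraries (median 1.48). PODXL, the podocalyxin of podocytes, was at 349 ± 3.44 CPM against 254 ± 2.88 CPM in RT4 shFTO, the next highest group. MUC15 was at 29.1 ± 1.33 CPM and higher in RT4 shNC (84.02 ± 4.56 CPM). The gut mucin MUC2 was too low to test, at 0.182 ± 0.139 CPM.

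Cell junction genes moved both ways. Of 24 tested tight junction genes, 2 were higher and 5 lower throughout (median -0.74). CLDN1 was at 3.56, 3.75 and 3.38 CPM against 18.4 to 679 CPM over the 9 other libraries (median 40.3), and the polarity protein PARD3 at 18.1, 18.5 and 18.9 CPM against 69.7 to 87.97 CPM over the 9 other libraries (median 74.2). Both were lower throughout, whereas CLDN7 (14.3 ± 0.895 CPM) was higher throughout and CLDN4 (29.8 ± 1.18 CPM) was below RT4 shFTO (66.6 ± 3.01 CPM). Of 18 desmosome and hemidesmosome genes, 4 were higher and 2 lower (median 0.94, or 0.05 without the filter). LAMB3, a chain of the hemidesmosomal laminin 332, was at 527, 553 and 561 CPM against 11.04 to 127 CPM over the 9 other libraries (median 35.9), above every other library in all 3 T24 shNC libraries. DSP, the desmosomal linker desmoplakin, was at 325 ± 6.85 CPM, below T24 shFTO (684 ± 22.9 CPM).

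Of 33 tested factors and products of epithelial-mesenchymal transition, 3 were higher and 6 lower throughout (median -1.09). VIM, the mesenchymal intermediate filament, was at 259.7 ± 0.549 CPM against 496 ± 16.2 in T24 shFTO, 3313 ± 144 in RT4 shNC and 37.6 ± 0.527 in RT4 shFTO. The repressors ZEB1 and ZEB2 were at 15.8 ± 0.880 and 12.6 ± 0.845 CPM, below both RT4 groups and above T24 shFTO. S100A4, a calcium-binding protein of motile cells, was at 183, 175 and 190.1 CPM against 1.48 to 29.8 CPM over the 9 other libraries (median 2.06), and NT5E, the ecto-nucleotidase CD73, at 14.2, 15.2 and 14.5 CPM against 47.4 to 798 CPM over the 9 other libraries (median 683). The first was higher and the second lower than every other library. SPARC was at 0.683, 0.149 and 0.107 CPM, against 4326 ± 95.98 CPM in RT4 shFTO.

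**Figure D4:**
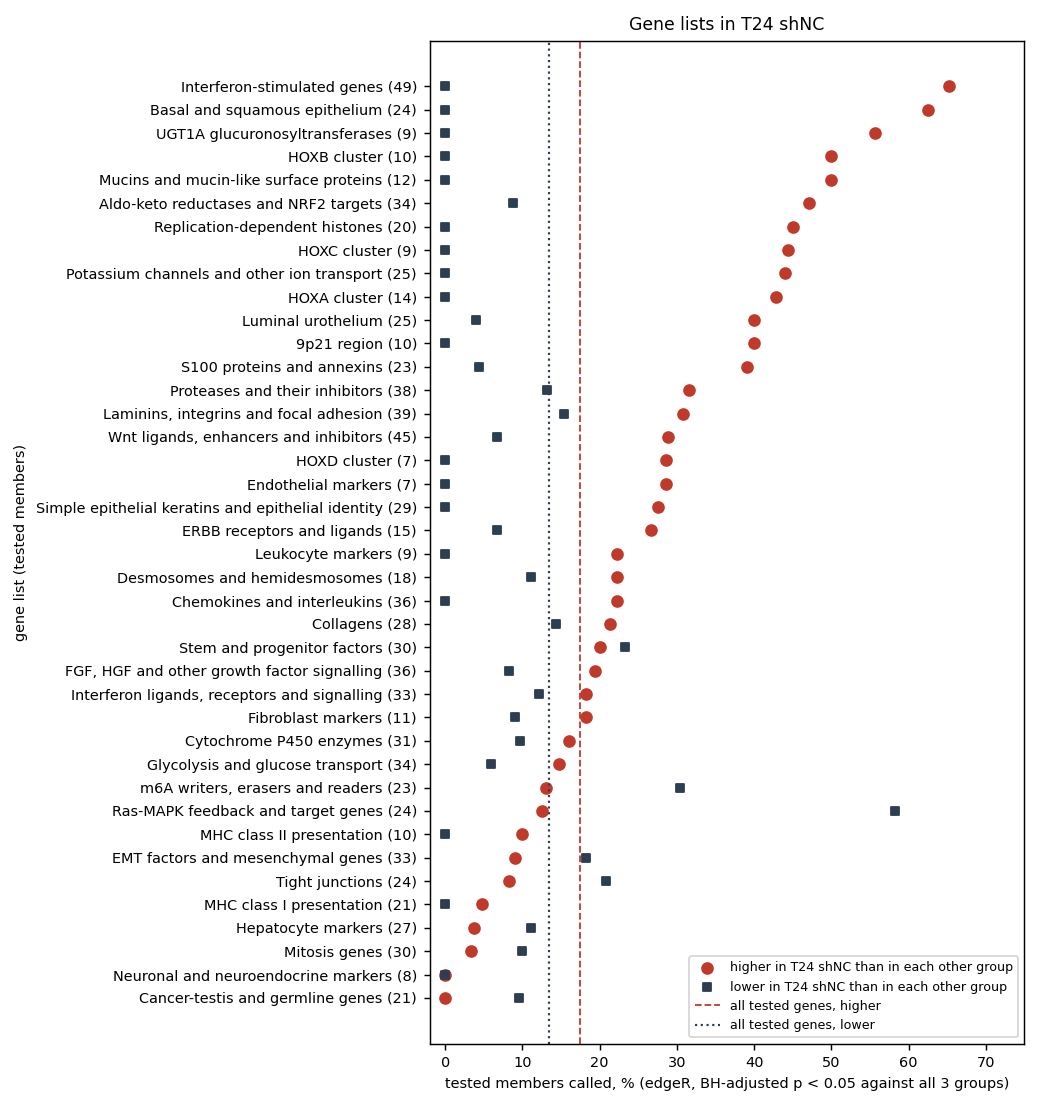
Share of the tested members of each of 40 gene lists (number in brackets) called higher throughout (circles) or lower throughout (squares) in T24 shNC, with the shares over all tested genes as lines (17.5% and 13.4%). Interferon-stimulated genes reach 65.3% higher and basal and squamous genes 62.5%, and the Ras-MAPK list reaches 58.3% lower.

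Feedback regulators and targets of the Ras-MAPK pathway had the highest share called lower throughout of the 40 lists. As background, many of these genes are transcribed in response to ERK activity. Of 24 tested genes, 14 were lower throughout (58.3%) and 3 higher, with a median difference of -1.65. DUSP6, the phosphatase that inactivates ERK, was at 2.13, 2.47 and 2.18 CPM against 53.5 to 147 CPM over the 9 other libraries (median 123). SPRY4, a Sprouty inhibitor of receptor signalling, was at 1.65, 2.08 and 2.76 CPM against 34.4 to 334 CPM over the 9 other libraries (median 45.9). PHLDA1 was at 5.86, 4.94 and 4.48 CPM against 141 to 682 CPM over the 9 other libraries (median 179). All 3 genes were below every other library in all T24 shNC libraries, with differences of -5.17, -4.93 and -5.53 and a highest edgeR BH-adjusted p of 1.42e-14. DUSP5 and SPRY1 were lower throughout as well, at 1.86 ± 0.322 and 0.959 ± 0.148 CPM.

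FOS, DUSP1 and EGR1 of the same list were higher throughout. FOS, a subunit of AP-1, was at 553, 564 and 568 CPM against 15.7 to 137 CPM over the 9 other libraries (median 22.1). DUSP1, a stress-induced phosphatase, was at 256, 245 and 261 CPM against 25.7 to 53.5 CPM over the 9 other libraries (median 39.4). Their differences were 3.92 and 2.72. EGR1, picked out after its values were seen, was at 417 ± 10.05 CPM. DUSP4, a nuclear ERK phosphatase, was at 56.1 ± 0.394 CPM, above T24 shFTO and RT4 shNC and below RT4 shFTO (84.3 ± 3.63 CPM).

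**Figure D5:**
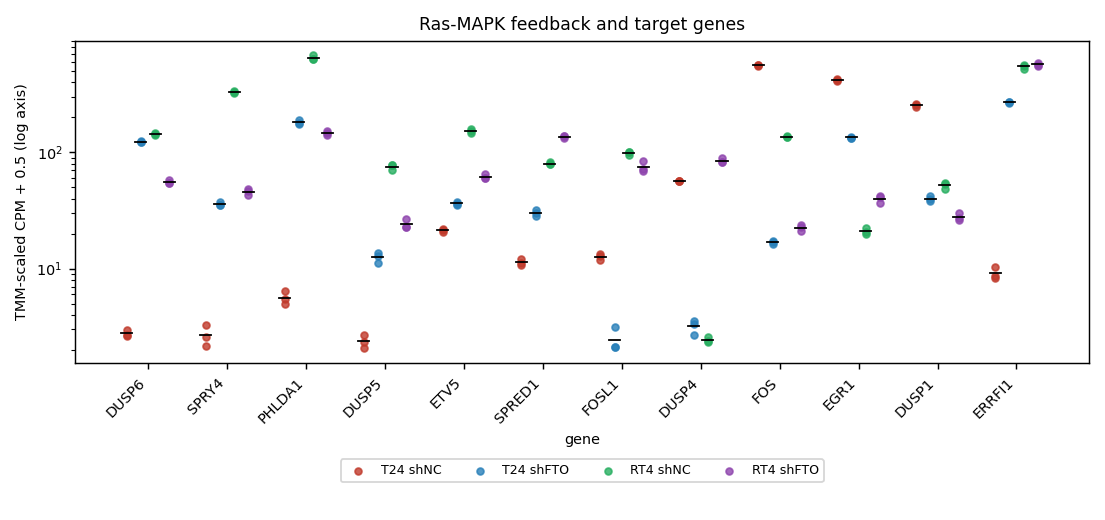
TMM-scaled CPM + 0.5 (log axis) of Ras-MAPK feedback and target genes and of ERRFI1, with 1 point per library and bars for group means. DUSP6, SPRY4, PHLDA1, DUSP5 and ERRFI1 are lowest in T24 shNC (means from 1.86 to 8.56 CPM), and FOS, EGR1 and DUSP1 are highest there.

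Of 15 tested ERBB receptors, ligands and regulators, 4 were higher and 1 lower throughout (median -0.10, or 0.00418 under upper-quartile scaling). The gene lower throughout was ERRFI1, the feedback inhibitor of EGFR, at 9.74, 7.80 and 8.16 CPM against 266 to 587 CPM over the 9 other libraries (median 553). Among ligands, EPGN (epigen) was at 22.2, 25.4 and 21.8 CPM against 0.0784 to 0.252 CPM over the 9 other libraries (median 0.109) and NRG4 at 12.2 ± 0.246 CPM, both higher throughout, while EREG (epiregulin) was at 1.02 ± 0.0475 CPM against 159 ± 2.94 in T24 shFTO, 0.0184 ± 0.0319 in RT4 shNC and 168 ± 5.77 in RT4 shFTO. The call of EREG against the mean was lost without RT4 shNC 3 (edgeR BH-adjusted p 0.967). Among receptors, ERBB2 was at 79.8 ± 1.59 CPM, higher throughout by a small difference of 0.39, and EGFR at 87.97 ± 2.55 CPM, between RT4 shNC (44.9 ± 1.04 CPM) and the groups labelled shFTO. Of 36 genes of other growth factor pathways, 7 were higher and 3 lower (median -0.47). MST1R, the receptor tyrosine kinase RON, was at 75.8, 82.5 and 83.7 CPM against 0 to 0.679 CPM over the 9 other libraries (median 0.0915). EFNA1, an ephrin ligand, was at 154 ± 2.94 CPM, FGF2 at 103 ± 3.75 and IGFBP6 at 90.1 ± 0.256 CPM, all higher throughout. PDGFC was at 4.87 ± 0.497 CPM and lower throughout.

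Of 45 tested Wnt genes, 13 were higher and 3 lower throughout (median 0.29), and several were ligands. WNT5A, the best known ligand of beta-catenin-independent signalling, was at 178, 170.3 and 173 CPM against 0 to 18.6 CPM over the 9 other libraries (median 0.0918). WNT7B, WNT9A and WNT11 were at 15.6 ± 0.255, 30.4 ± 2.02 and 23.8 ± 1.66 CPM. The receptor FZD10 was at 12.1, 12.1 and 13.2 CPM with 0 counts in the 9 other libraries, at least 1999-fold higher. With RSPO3 described above, an enhancer, 4 ligands and a receptor were above every other library, as were 18.9% of all tested genes. The summed level of the list was 1237 CPM in T24 shNC, 2779 in T24 shFTO, 719 in RT4 shNC and 1981 in RT4 shFTO. WNT5B was at 0.293 ± 0.0821 CPM, below RT4 shNC (13.8 ± 0.121 CPM).

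HOX genes encode transcription factors that set position along the body axis. Of tested genes, 6 of 14 in the HOXA cluster, 5 of 10 in HOXB, 4 of 9 in HOXC and 2 of 7 in HOXD were higher throughout, and none in any cluster was lower throughout. HOXA11 and its antisense RNA HOXA11-AS were at 17.7, 18.7 and 17.7 CPM and 16.2, 17.4 and 16.1 CPM, against 0.121 to 0.640 CPM over the 9 other libraries (median 0.254) for HOXA11. HOXC11 was at 9.48, 7.98 and 8.99 CPM against 0 to 0.0459 CPM over the 9 other libraries (median 0), and the long noncoding RNA HOTAIR from the same cluster at 11.4, 11.1 and 11.5 CPM against 0 to 0.0784 CPM over the 9 other libraries (median 0). HOXB13 and HOXA13 were at 9.94 ± 0.624 and 8.12 ± 0.216 CPM, and HOXC10 at 62.4 ± 2.08 CPM against 28.3 ± 2.64 CPM in RT4 shNC. In these named genes the 3 T24 shNC libraries were above every other library. HOXC4 and HOXB3, from the anterior ends, were higher in RT4 shNC, at 13.4 ± 0.806 and 99.8 ± 2.19 CPM against 3.42 ± 0.494 and 15.5 ± 0.852 CPM. Summed over the HOXA, HOXB, HOXC and HOXD clusters the levels were 96.7, 97.4, 118 and 13.6 CPM in T24 shNC and 86.9, 265, 96.4 and 21.9 CPM in RT4 shNC. The HOXB and HOXD sums were thus higher in RT4 shNC. In T24 shFTO the 4 sums were 89.9, 0.118, 0.236 and 0.0301 CPM, and in RT4 shFTO 0.537, 68.0, 0.119 and 11.8 CPM. The HOXA sum of T24 shFTO was thus close to that of T24 shNC, and the median differences also reflect groups with sums near 0. No source used here gives the strand setting, so a gene and its overlapping antisense RNA cannot be told apart. Median differences were 0.75, 2.16, 2.66 and 0.85.

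The 9p21 region holds the cell cycle inhibitors CDKN2A and CDKN2B, which many bladder cancers have lost. Both were expressed in T24 shNC, at 113, 107 and 125 CPM and 48.1, 48.9 and 48.99 CPM. They were near 0 in RT4 shFTO (0.0531 ± 0.0536 and 0 CPM) and expressed in T24 shFTO and RT4 shNC. Of 10 tested genes of the region, 4 were higher throughout and none lower (median 1.97). MTAP, which salvages methionine, was at 67.6 ± 3.39 CPM against 62.3 ± 2.18 in T24 shFTO, 37.4 ± 0.548 in RT4 shNC and 0 in RT4 shFTO. The call of MTAP against T24 shFTO was close to the threshold, with an edgeR BH-adjusted p of 0.0306.

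Matrix genes gave a mixed set. Of 28 tested collagen genes, 6 were higher and 4 lower throughout (median 1.28). COL7A1, the anchoring fibril of stratified epithelium, was at 1351, 1359 and 1428 CPM against 8.12 to 54.9 CPM over the 9 other libraries (median 10.3). COL4A2, a basement membrane chain, was at 332 ± 7.68 CPM against 195 ± 4.98 CPM in RT4 shFTO. COL1A1 was at 153 ± 3.46 CPM, yet its partner chain COL1A2 had 0 counts in all 3 libraries against 6499 ± 147 CPM in RT4 shFTO. COL5A1 and COL5A2, chains of 1 collagen, likewise stood at 879 ± 18.6 and 0.412 ± 0.190 CPM, against 1541 ± 27.2 and 659 ± 12.4 CPM in RT4 shFTO. Of 39 laminin, integrin and focal adhesion genes, 12 were higher and 6 lower (median 0.26). TNS4, a focal adhesion protein of epithelia, was at 289, 301 and 306 CPM against 0 to 7.45 CPM over the 9 other libraries (median 0). LAMC3 was at 52.2 ± 1.99 CPM and ITGB8, an integrin that activates TGF-beta, at 41.2 ± 1.91 CPM, both higher throughout.

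Of 38 tested proteases and inhibitors, 12 were higher and 5 lower throughout (median 0.67, or 0.32 without the filter). The inhibitors SLPI, of mucosal secretions, and TFPI2 were at 94.8, 83.3 and 92.8 CPM and 79.9, 87.1 and 80.9 CPM, above every other library. MMP14, the membrane-type matrix metalloproteinase, was at 1.57, 0.595 and 0.407 CPM against 93.9 to 395 CPM over the 9 other libraries (median 105). It was below every other library in all T24 shNC libraries, with a difference of -6.88. Of 23 S100 and annexin genes, 9 were higher and 1 lower (median 1.53). S100P was at 109, 93.1 and 111 CPM against 0.0261 to 1.80 CPM over the 9 other libraries (median 0.107), and ANXA8, which has near-identical copies, at 257, 260.4 and 265 CPM against 0 to 10.8 CPM over the 9 other libraries (median 0.0663). S100A6 was at 703 ± 50.7 CPM but higher in RT4 shFTO (1009 ± 40.2 CPM).

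Ion and water channels added to the transporters among the high-only genes. Of 25 tested members, 11 were higher and none lower throughout (median 0.13). KCNK1, a leak potassium channel, was at 124, 127 and 126 CPM against 0 to 3.87 CPM over the 9 other libraries (median 0). KCNQ1, a voltage-gated channel of heart and secretory epithelia and a high-only gene, was at 35.9, 35.98 and 37.02 CPM. AQP3, the aquaglyceroporin of basal epithelium and urothelium, was at 203, 203 and 215 CPM against 0.0365 to 17.999 CPM over the 9 other libraries (median 1.49), and AQP1 at 42.1 ± 2.42 CPM. Of 34 glycolysis and glucose transport genes, 5 were higher and 2 lower (median 0.61). HK1, the housekeeping hexokinase, was at 349 ± 13.7 CPM against 0 in T24 shFTO, 65.8 ± 1.56 in RT4 shNC and 185 ± 3.47 in RT4 shFTO. HK2 was at 41.6 ± 1.69 CPM, and PFKFB3, which makes the activator of phosphofructokinase, at 9.57 ± 0.609 CPM, lower throughout.

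Of 23 tested m6A writers, erasers and readers, 3 were higher and 7 lower throughout (median -0.03, or 0.0878 under upper-quartile scaling). METTL3, the methyltransferase, was at 88.8, 87.4 and 91.9 CPM against 30.3 to 67.3 CPM over the 9 other libraries (median 53.8). IGF2BP2, a reader that stabilises target RNAs, was at 7.83, 6.46 and 6.62 CPM against 72.6 to 163 CPM over the 9 other libraries (median 149). VIRMA and YTHDF3 were lower throughout, at 49.1 ± 1.63 and 54.3 ± 1.19 CPM. Of 30 stem and progenitor factors, 6 were higher and 7 lower (median -0.19, or 0.05 without the filter). HMGA2, a chromatin protein of embryonic and cancer cells, was at 5.86, 4.14 and 4.63 CPM against 151 to 1742 CPM over the 9 other libraries (median 388), and SOX9, a progenitor factor of many epithelia, at 0.882, 0.685 and 0.899 CPM against 60.2 to 162 CPM over the 9 other libraries (median 89.9). Both were below every other library. ENG (endoglin, a TGF-beta coreceptor) was higher throughout at 84.98 ± 1.63 CPM, and CD24 was at 629 ± 29.2 CPM, below T24 shFTO (697 ± 19.9 CPM).

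Of 30 tested mitosis genes, 1 was higher and 3 lower throughout (median 0.00). MKI67, the proliferation antigen, was at 142 ± 4.22 CPM against 314 ± 12.8 in T24 shFTO, 73.04 ± 1.14 in RT4 shNC and 905 ± 35.7 in RT4 shFTO, and CDK1 at 202 ± 6.89 CPM was the gene higher throughout. Of 20 histone genes, 9 were higher and none lower (median 1.13, or 0.35 without the filter), among them H2BC5 at 27.03 ± 0.831 and H4C14 at 14.5 ± 0.733 CPM. Most replication-dependent histone transcripts lack a poly(A) tail and the genes are near copies, so poly(A)-selected levels describe only part of them. Of 21 cancer-testis genes, none was higher and 2 lower throughout (median -1.26, or -0.35 without the filter). PRAME was at 60.1 ± 1.73 CPM, between T24 shFTO (4.54 ± 0.406) and RT4 shNC (132 ± 4.96 CPM), and MAGEA3 and MAGEA12, which have close copies, were at 0.0397 ± 0.0687 and 0.0143 ± 0.0247 CPM.

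Markers of other cell types were mostly low, with single exceptions, and their part in the other results was not tested. Of 27 hepatocyte markers, 1 was higher and 3 lower throughout. Their summed level was 2849 to 2927 CPM in T24 shNC, of which CPS1 made up almost all, 32773 to 34048 CPM in T24 shFTO, 10.2 to 11.5 in RT4 shNC and 42.1 to 46.98 CPM in RT4 shFTO. ALB (albumin) and TF (transferrin) were at 0.0844 ± 0.0254 and 0.0428 ± 0.0742 CPM, and APOA1 had 0 counts. Of 11 tested fibroblast markers, 2 were higher and 1 lower, with sums of 459 to 499 CPM in T24 shNC, 266 to 270.4 in T24 shFTO, 31.8 to 34.3 in RT4 shNC and 7505 to 7839 CPM in RT4 shFTO. FBLN1, a matrix fibulin, was at 314 ± 16.6 CPM and made up most of the T24 shNC sum with COL1A1, while COL1A2 was at 0.

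Of 9 tested leukocyte markers 2 were higher throughout, among them CD8A at only 0.357 ± 0.0718 CPM, and PTPRC, CD3E and CD4 had 0 counts. The sums were 11.1 to 15.2 CPM in T24 shNC, 18.2 to 23.9 in T24 shFTO, 32.96 to 38.5 in RT4 shNC and 47.4 to 58.7 CPM in RT4 shFTO. Of 7 tested endothelial markers 2 were higher throughout, EGFL7 at 59.4 ± 3.84 CPM and CDH5 at 1.26 ± 0.362 CPM, with KDR at 0, and the sums were 61.3 to 67.5 CPM in T24 shNC, 22.02 to 24.9 in T24 shFTO, 22.8 to 24.8 in RT4 shNC and 21.7 to 22.8 CPM in RT4 shFTO. None of 8 tested neuronal and neuroendocrine markers was higher or lower throughout by the edgeR test. SYP and NCAM1, a synaptic vesicle protein and an adhesion molecule, were at 0.625 ± 0.123 and 0.164 ± 0.144 CPM. Their sums were 119.5 to 124 CPM in T24 shNC, 105 to 111 in T24 shFTO, 657 to 707 in RT4 shNC and 227 to 237 CPM in RT4 shFTO.

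The 3 T24 shNC libraries varied little among themselves. Over 9949 genes at 10 CPM or more, the ratio of the highest to the lowest library had a median of 1.07 and a 95th percentile of 1.198, and it passed 1.5 for 47 genes and 2 for 14. The 5 widest were SENP3-EIF4A1 (51.8, 48.2 and 265 CPM), FBXL20 (33.1, 12.7 and 29.8), P2RX5-TAX1BP3 (20.2, 35.2 and 51.5), NDUFA7 (23.2, 10.4 and 25.97) and RNASEK-C17orf49 (25.1, 13.96 and 34.8 CPM). Of these, SENP3-EIF4A1, P2RX5-TAX1BP3 and RNASEK-C17orf49 are read-through genes that share exons with their neighbours, so their counts depend on how shared reads were assigned. Mitochondrial genes took 5.31% to 5.66% of counts, and 15165 to 15226 genes reached 1 CPM, against 14245 to 14759 in the other libraries. The 3 libraries differed by more than sampling noise (chi-squared per degree of freedom 5.47 to 7.28), so none is a copy of another.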

How the data were processed

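RNA of 12 libraries, 3 in each of 4 groups, was measured by poly(A)-selected paired-end sequencing per the labels' protocols. The authors deposited 1 table of whole-number counts for 43557 genes. The submitters' processing notes name fastp 0.20.0, STAR 2.7.9a and featureCounts 2.0, and the builds mm39, GRCh38 and hg38 without their roles. How the counting treated strand, overlapping genes and multiply placed reads is not stated in these sources.

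Counts were analysed with edgeR 4.0.16 in R 4.3.3 (TMM scaling, filterByExpr by group, robust quasi-likelihood fit of 4 groups, a common biological coefficient of variation of 0.0768, 8 residual degrees of freedom). T24 shNC was tested against the mean of the 3 other groups and against each of them, with Benjamini-Hochberg adjustment over 23070 genes at 0.05. Simulated counts covered 21277 genes, of which 66 or 67 a size were changed 1.5-fold, 2-fold and 4-fold in T24 shNC only. All other genes had equal levels in the groups. In the contrast against the mean 85.1%, 92.5% and 98.5% of the changed genes were recovered, and 4.17% of calls were false. All 3 pairwise contrasts together recovered 71.6%, 82.1% and 97%, and false calls were not counted there. In the data 74.9% of genes were called. How scaling and false calls behave with so many differences was therefore not tested. Log2 differences used a pseudocount of 0.5 CPM. Positions and promoters came from RefSeq, matched by symbol for 30064 genes, and 13012 genes were named only by Ensembl identifiers. Exon lengths were those of the merged exons of each gene symbol in the GENCODE annotation.

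Replicate numbers equal the labelled batch numbers 1 to 3. Same-numbered libraries of T24 shNC and another group deviated from their group means with correlations of -0.108 to 0.101, and the block was used as an alternative. Other alternatives were the scaling, the low-count filter, the thresholds, DESeq2 1.42.0, limma-voom (limma 3.58.1) and leaving out each library.

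The genes and lists were chosen with earlier results of these data known. Named genes were FTO, the 4 markers, the 20 high-only genes with the highest T24 shNC mean (identifiers left out), 15 absent-only genes with the highest level in their lowest other group, the first 4 members of each of the 40 lists, up to 4 further called members with the largest difference, and the 5 genes with the widest spread. Genes printed or plotted outside this rule were chosen after their values were seen. No sequence-level data were used. A few genes of the lists are counted in them but not reported by name here.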

Additional observations from a re-analysis of the deposited data

How the results depend on the processing

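Counts of genes called, and of high-only and absent-only genes, stayed within 1.5 times under RLE scaling, upper-quartile scaling, both other filters, DESeq2, limma-voom, library totals and a 1 CPM limit for absence. Requiring a 2-fold difference left 9202 genes called against the mean, 2248 higher throughout and 1125 lower throughout. With 1 CPM as the level for high, 400 genes were high only and 107 absent only, with 50 CPM 20 and 2, and with 0.1 CPM as the limit for absence 32 and 5. Leaving out 1 library gave 16730 to 17644 genes called, 3814 to 4106 higher throughout, 2973 to 3135 lower throughout, 76 to 79 high only and 16 to 20 absent only. With the replicate number as a block, 16975 genes were called (9535 higher and 7440 lower), 3922 higher throughout and 3018 lower throughout, and no call of a named gene against the mean changed.

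Upper-quartile scaling shifted the median over all genes by 0.0881 on the log2 scale. It turned the list medians of ERBB genes to 0.004178 and of m6A genes to 0.08778. Without the filter, the medians of cytochrome P450 genes and of stem and progenitor factors turned to 0.02085 and 0.04796, and those of basal genes (0.3597), mucins (0.5787), desmosomes (0.05374), histones (0.3535), proteases (0.3245), cancer-testis genes (-0.3527) and class II genes (-0.1216) moved towards 0. Without it 19 of 40 list medians moved by less than the spread between libraries. The median of mitosis genes turned to -0.003251 as a mean of within-batch differences with the replicate block, and without single T24 shNC replicates it ran from -0.05961 to 0.02292. The median of ion transport genes ran from -0.00971 to 0.2658 without single T24 shNC replicates. CDC37, which was not called, changed sign without the filter (edgeR BH-adjusted p 0.565) and without single libraries (0.299 to 1), and was called higher under upper-quartile scaling (0.00154). Of 206 named genes, 198 kept their call and direction against the mean under every alternative. Beside CDC37, TP63 and EREG lost theirs without single libraries as given above, ATG4D without the filter (0.0967) or T24 shNC 3 (0.0712), and PTPRC without RT4 shNC 2 (1). UPK1B (0.00279) and UPK3A (0.00658) gained a call in limma-voom, and NCAM1 without T24 shFTO 2 (0.029). The causes were not tested. T24 shNC was among the shallower groups, so traces under 0.5 CPM rest on few counts.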
